A study of Mus musculus with 10 samples.

Results

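The genes described here are 10 germline genes whose promoters are known to be silenced by DNA methylation in somatic cells: Dazl, Ddx4, Sycp1, Sycp3, Mael, Asz1, Tex101, Tex19.1, Dppa3 and Slc25a31. They were picked by symbol from the 51467 genes of a count table of mouse embryonic stem cells (ESCs), and all 10 were found in it. RNA was measured in 10 libraries by QuantSeq, which reads the 3′ end of polyadenylated transcripts and so gives about 1 read per transcript whatever its length. Wild-type (WT) V6.5 ESCs gave 3 libraries. DGCR8 KO cells, a line made earlier that lacks the RNA-binding partner of Drosha and therefore most miRNAs, gave 3 libraries. DDX6 KO cells, made from V6.5 by CRISPR-Cas9, lack an RNA helicase of the P-body and gave 4 libraries, 2 from each of 2 clones. All groups grew in serum with LIF and 2i, inhibitors of MEK and GSK3 that hold ESCs in the naive state, and none carried another named allele. The DGCR8 KO group is thus 1 line, each DDX6 KO clone is 1 clone, and nothing in the sources used here says whether libraries of a group came from separate cultures, so p-values measure the spread between these libraries, which may be technical.

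In the mouse, genes of this class are expressed in primordial germ cells, oocytes or spermatogenic cells, where they serve meiosis, the defence against transposons and germ cell metabolism. In other cells their promoters, which often lie in CpG islands, are held silent by DNA methylation set by DNMT3B and DNMT3A and kept by DNMT1 and UHRF1, by methylation of histone H3 on lysine 9, and in ESCs by the Polycomb complex PRC1.6, which is brought to DNA through E2F6 and the MGA-MAX pair. ESCs in 2i have low DNA methylation, and some of these genes, such as Tex19.1, are transcribed in pluripotent cells in any case.

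The genes lie on 8 chromosomes of mm10, and none shares its strand with another annotated gene. Dazl is at chr17:50279394-50293599, Ddx4 at chr13:112598333-112652310, Sycp1 at chr3:102818499-102936100, Mael at chr1:166201201-166238747, Asz1 at chr6:18050964-18109057 and Tex101 at chr7:24668007-24672050, all on the minus strand. Sycp3 at chr10:88459569-88473236, Tex19.1 at chr11:121146143-121148319, Dppa3 at chr6:122626410-122630272 and Slc25a31 at chr3:40708855-40726096 are on the plus strand. Exons of Sycp3 overlap Chpt1 on the opposite strand, and the authors counted reads by strand.

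Promoter sequence is what is thought to make these genes sensitive to methylation, so the promoters of 4 of them are printed, as RefSeq gives them for GRCm38.p6, with each CG dinucleotide in capitals. Each runs 5′ to 3′ on the strand of its gene, from 250 bases before to 50 bases after the start site. Slc25a31 and Ddx4 are shown because they rose most in DDX6 KO, Dazl because it differed from WT in opposite directions in the knockouts, and Tex19.1 because it is the most abundant of the genes.
Slc25a31 (chr3:40708621-40708920, plus strand): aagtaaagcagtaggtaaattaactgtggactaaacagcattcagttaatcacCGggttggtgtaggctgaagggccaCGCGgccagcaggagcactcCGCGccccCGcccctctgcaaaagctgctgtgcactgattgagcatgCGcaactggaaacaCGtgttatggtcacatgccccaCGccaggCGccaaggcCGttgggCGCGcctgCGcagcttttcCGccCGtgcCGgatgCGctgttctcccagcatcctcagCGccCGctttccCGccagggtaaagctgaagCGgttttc
Ddx4 (chr13:112652261-112652560, minus strand): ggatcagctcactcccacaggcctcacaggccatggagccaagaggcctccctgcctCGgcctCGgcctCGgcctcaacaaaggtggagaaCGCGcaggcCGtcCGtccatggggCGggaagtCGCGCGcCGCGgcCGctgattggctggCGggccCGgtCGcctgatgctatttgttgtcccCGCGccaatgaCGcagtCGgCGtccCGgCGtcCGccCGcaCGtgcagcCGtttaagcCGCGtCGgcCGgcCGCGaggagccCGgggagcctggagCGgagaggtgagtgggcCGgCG
Dazl (chr17:50293571-50293870, minus strand): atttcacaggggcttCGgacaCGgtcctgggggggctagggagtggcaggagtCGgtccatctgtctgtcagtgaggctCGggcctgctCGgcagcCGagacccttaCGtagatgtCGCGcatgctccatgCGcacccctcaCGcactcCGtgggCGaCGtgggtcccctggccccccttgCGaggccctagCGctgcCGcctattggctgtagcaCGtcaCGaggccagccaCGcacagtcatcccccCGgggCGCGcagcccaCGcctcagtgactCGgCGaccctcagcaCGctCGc
Tex19.1 (chr11:121145893-121146192, plus strand): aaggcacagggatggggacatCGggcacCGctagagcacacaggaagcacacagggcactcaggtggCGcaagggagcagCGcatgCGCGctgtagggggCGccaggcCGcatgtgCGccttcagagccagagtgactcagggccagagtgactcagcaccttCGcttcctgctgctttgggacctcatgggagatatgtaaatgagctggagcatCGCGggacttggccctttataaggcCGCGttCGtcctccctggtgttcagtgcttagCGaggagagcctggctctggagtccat

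A promoter was found for 9 of the 10 genes, all but Dppa3. These promoters held 15 (Sycp3) to 38 (Ddx4) CG dinucleotides in 300 bases. The median over all 32851 promoters was 7, and that over promoters of genes tested here was 21. The ratio of observed to expected CG ran from 0.575 in Tex19.1 to 0.978 in Ddx4, against a median of 0.384 over all promoters. By CG content the 9 promoters therefore stood above most promoters of the genome and around the middle of those active in ESCs. The plot of CG dinucleotides shows where each one lies.

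**Figure D1:**
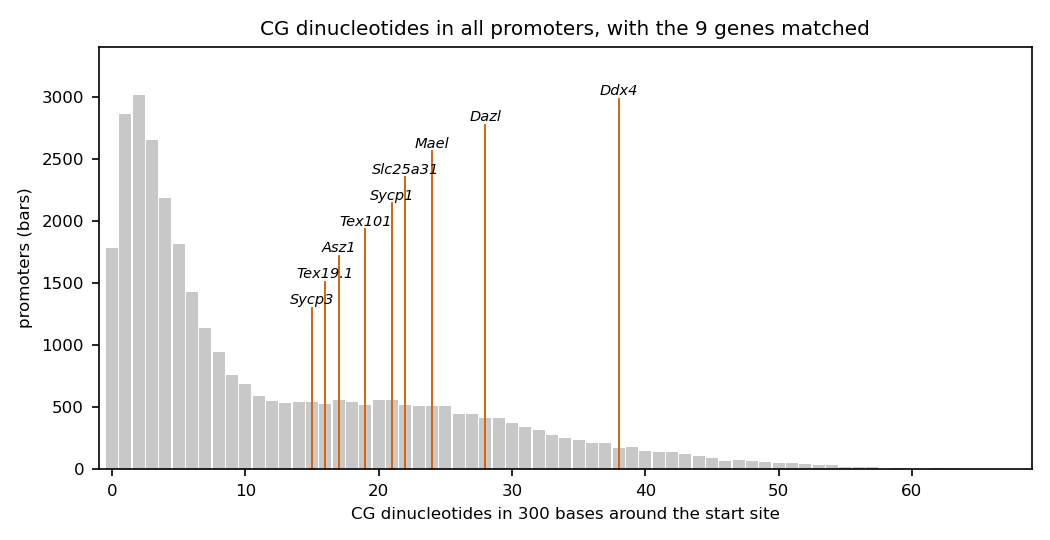
CG dinucleotides (x axis) in the 300 bases around each start site; grey bars count all 32851 promoters (y axis), and each labelled line stands at the count of 1 gene, its height chosen only to keep the names apart. The 9 genes lie between 15 and 38, to the right of the median of 7.

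Short motifs were searched in the same windows, on both strands. TCCCGC is the core of the site read by E2F6, and CACGTG, which reads the same on both strands, is the E-box bound by MGA with MAX. TCCCGC was present in 6 of the 9 promoters, against 20.0% of all promoters and 36.4% of those of tested genes. CACGTG was present in 5, against 7.15% and 10.3%. Ddx4, Sycp1, Sycp3, Mael and Slc25a31 held both motifs, as did 1.99% of all promoters and 3.92% of those of tested genes. Counted from the first base printed, Slc25a31 had CACGTG at bases 158 to 163 and TCCCGC at 271 to 276, and Ddx4 had TCCCGC on the other strand at 115 to 120 and CACGTG at 222 to 227. Tex19.1 had TCCCGC alone, on the other strand at 218 to 223, and Dazl, Asz1 and Tex101 had neither. The motifs did not overlap each other in any of these promoters. A match is a description of the letters and not evidence that a factor is bound.

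Since DGCR8 KO cells lack miRNAs, the 3′ UTRs were also searched for the target sites of the miRNAs that dominate ESCs, those of the miR-290 and miR-302 clusters with the seed AAGUGCU. Their mature sequences are shown for a member of each cluster with the seed, bases 2 to 8, in capitals.
mmu-miR-294-3p: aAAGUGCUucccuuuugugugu
mmu-miR-302d-3p: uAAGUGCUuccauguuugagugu

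None of the 10 genes had AGCACTT or GCACTTA, the 7-base matches to this seed, in the 3′ UTR of its main coding transcript. Of 21104 genes with an annotated 3′ UTR, 16.04% had one. The 3′ UTRs of the 10 genes ran from 163 bases in Mael to 1852 in Dazl, and the median over all genes was 806.

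The total count over genes lay between 2131156 and 4745083 per library, so that the floor of 3 counts used here corresponded to 0.665 to 1.43 CPM, a library's counts scaled to a common total with trimmed-mean (TMM) factors from edgeR. Such floors, and the Poisson intervals below, take in no error but that of counting. Both targeted genes were low in their own knockouts. Dgcr8 was at 11.5 CPM in DGCR8 KO against 55.8 in WT, and Ddx6 was at 86.8 CPM in DDX6 KO against 536 in WT. The markers of naive ESCs were present in every group: all 7 were tested, and none was called in either knockout against WT. At an adjusted p under 0.05 from limma, 1 of the 7 was higher and 4 were lower in DGCR8 KO. In DDX6 KO 1 was higher and 1 lower. Over all 11683 genes tested the numbers were 2322 and 1924 in DGCR8 KO, and 2089 and 1944 in DDX6 KO. The marker higher in DDX6 KO was Nanog (log2 difference 0.62). It lies on chromosome 6, whose median log2 difference in DDX6 KO was 0.60, and less that median its difference was 0.02. A gene was called where limma with voom weights gave an adjusted p under 0.05 and a log2 difference beyond 1 in size. Of the 10 genes, 8 passed the filter of at least 3 CPM in at least 3 libraries and were tested, while Asz1 and Tex101 did not and are given by their counts. Mael and Slc25a31 passed it only through the DDX6 KO libraries, in which they are high, so that they had to differ to be tested.

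In WT cells the genes covered a wide range of levels. Tex19.1 had a mean of 415 CPM ± 57.6 (SD, n = 3), Dazl 43.8 ± 12.8, Sycp3 15.8 ± 5.89, Dppa3 14.2 ± 1.84, Ddx4 12.3 ± 4.47 and Sycp1 3.69 ± 0.326. Below these came Tex101 at 1.73 ± 0.640, Slc25a31 at 1.09 ± 1.199, Mael at 1.05 ± 0.798 and Asz1 at 0.272 ± 0.246, which lie near the floor. Tex19.1, Dazl and Sycp1 stood apart from their neighbours in this order. The ranges of Sycp3, Dppa3 and Ddx4 overlapped each other, as did those of Tex101, Slc25a31 and Mael, and Asz1 overlapped the last 2. WT replicate 3, the deepest library, had the lowest CPM of its group for 5 of the 10 genes, Dazl, Ddx4, Sycp3, Asz1 and Tex101, and the highest for Tex19.1 and Sycp1.

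**Figure D2:**
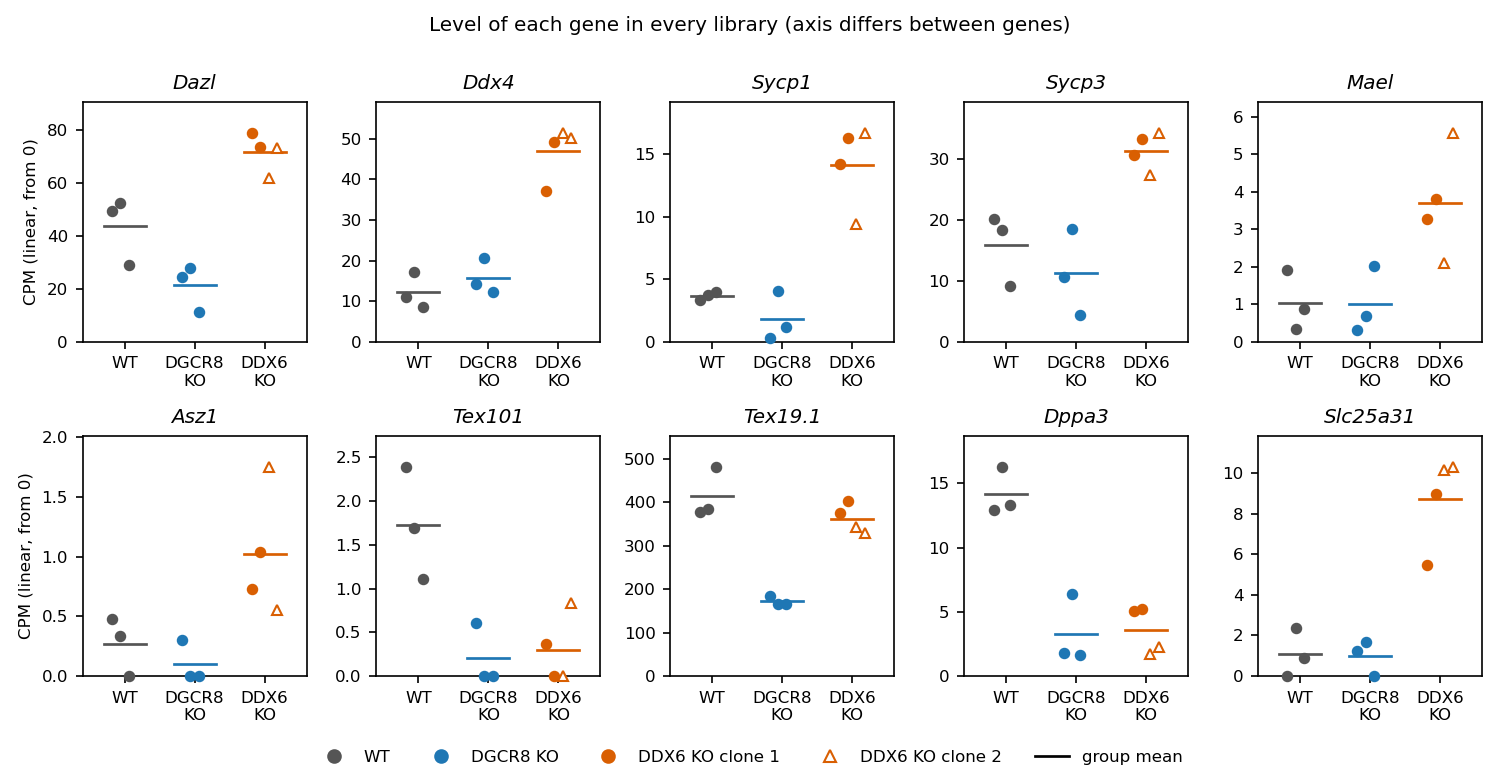
CPM of the 10 genes (y axis, linear from 0, a different scale in each panel) in the WT, DGCR8 KO and DDX6 KO libraries (x axis); each point is 1 library, open triangles are DDX6 KO clone 2, and the line is the group mean. All DDX6 KO libraries lie above all others in the panels of Dazl, Ddx4, Sycp1, Sycp3, Mael, Asz1 and Slc25a31, and in the Dppa3 panel both knockouts lie below WT. The share of all genes tested that do the same was not counted. Mael and Slc25a31 passed the filter only through DDX6 KO, and Asz1 had at most 5 counts in any library.

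In DDX6 KO cells, of the 6 genes whose place in the test did not depend on the DDX6 KO libraries, 3 were called higher than in WT (Ddx4, Sycp1 and Sycp3) and 1, Dppa3, was called lower, where 7.55% of the 11683 genes tested were called higher and 3.66% lower. The median log2 difference of the 6 was 1.01, against 0.02 over all genes tested. Mael and Slc25a31 were called higher as well, but could be tested only because they are high in DDX6 KO, and add nothing to that count. In DGCR8 KO cells, by contrast with WT, 2 of the same 6 were called lower (Tex19.1 and Dppa3) and 0 higher, where 5.8% of all genes tested were called lower and 8.93% higher. Their median was -1.12, against 0.00 over all genes. An unadjusted p under 0.05 was reached by 4 of the 8 genes tested in DGCR8 KO, and by 5319 of all 11683 genes tested. Fits with edgeR and DESeq2 also called 0 of the 8 higher. Both comparisons share the WT libraries. With bulk RNA, more transcripts per cell and more cells that express a gene cannot be told apart.

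**Figure D3:**
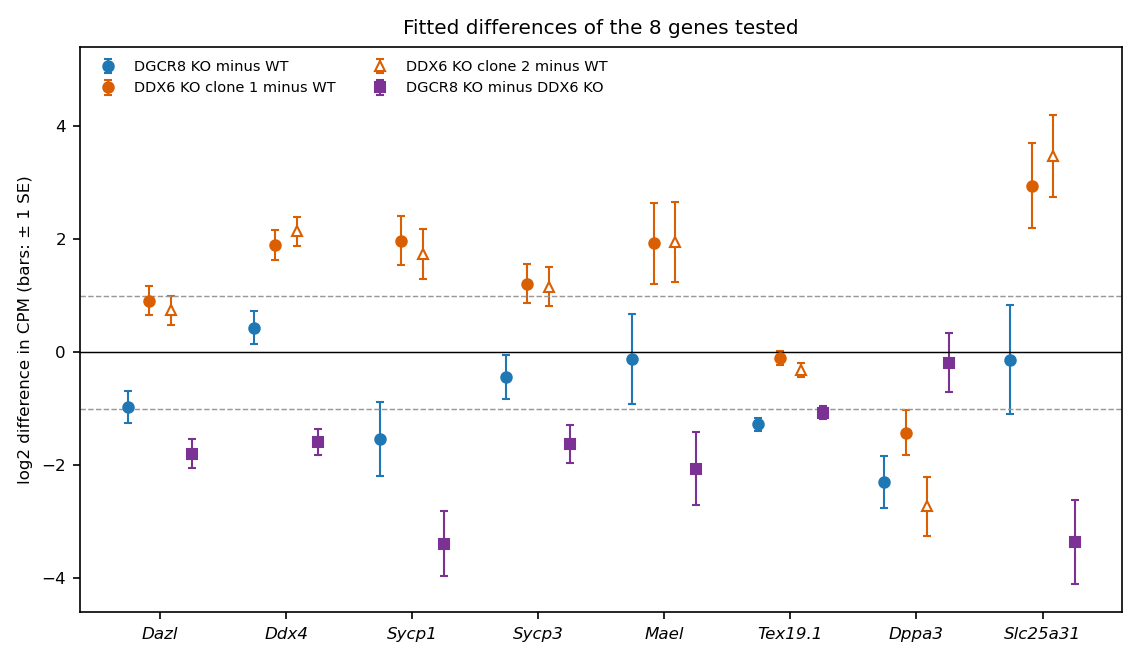
Fitted log2 difference (y axis, bars ± 1 SE) of the 8 genes tested (x axis): DGCR8 KO minus WT, each DDX6 KO clone minus WT, and DGCR8 KO minus DDX6 KO; dashed lines mark a difference of 1 in either direction. Both clones lie above 0 for Dazl, Ddx4, Sycp1, Sycp3, Mael and Slc25a31 and below it for Tex19.1 and Dppa3, and the DGCR8 KO minus DDX6 KO values are below -1 for all but Dppa3.

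Dazl and Ddx4 encode RNA-binding proteins of germ cells, DAZL a regulator of translation and DDX4 (VASA) an RNA helicase of the germ granule. Dazl was at 49.7, 52.5 and 29.1 CPM in WT, at 24.7, 28.0 and 11.3 in DGCR8 KO, at 79.1 and 73.7 in DDX6 KO clone 1 and at 61.9 and 73.2 in clone 2. No 2 groups overlapped: all DGCR8 KO libraries were below, and all DDX6 KO libraries above, every WT library. The log2 difference from WT was -0.97 (SE 0.28, adjusted p = 0.0109) in DGCR8 KO and 0.82 (SE 0.21, adjusted p = 0.00542) in DDX6 KO, both short of the size needed for a call. Single libraries moved both values. Leaving out 1 library moved the DGCR8 KO difference to between -1.32 (without WT replicate 3) and -0.62 (without DGCR8 KO replicate 3, adjusted p = 0.0619), and the DDX6 KO difference to between 0.48 (without WT replicate 3, adjusted p = 0.103) and 1.01. Over all alternatives the adjusted p ran from 1.62e-05 to 0.0619 in DGCR8 KO, where 7 of 16 made a call, and from 0.00114 to 0.103 in DDX6 KO. In DDX6 KO 1 of 19 alternatives made a call, and the difference ran from 0.45 to 1.01 over all of them. The WT and DGCR8 KO libraries deviated together by replicate number, and with that number as a block the DGCR8 KO difference was -1.04 (adjusted p = 1.62e-05) and was called.

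Ddx4 was at 10.99, 17.3 and 8.65 CPM in WT, at 14.3, 20.6 and 12.2 in DGCR8 KO, at 37.2 and 49.1 in clone 1 and at 51.4 and 50.1 in clone 2. All DDX6 KO libraries were above all others. WT and DGCR8 KO overlapped, but in each of the 3 same-numbered pairs the DGCR8 KO library was the higher. The difference from WT was 2.02 (SE 0.24, adjusted p = 6.11e-06) in DDX6 KO, a 4.07-fold increase, and 0.44 (SE 0.29, adjusted p = 0.256) in DGCR8 KO, or 0.34 (adjusted p = 0.263) with the replicate block, over alternatives that gave an adjusted p from 0.0921 to 0.831. It was called in DDX6 KO under every alternative, with log2 differences from 1.70 to 2.30.

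Sycp1 and Sycp3 encode proteins of the synaptonemal complex, which holds homologous chromosomes together in meiosis, SYCP1 as its transverse filament and SYCP3 in its lateral elements. Sycp1 was at 3.34, 3.73 and 3.99 CPM in WT, at 0.305, 4.05 and 1.22 in DGCR8 KO, at 14.2 and 16.3 in clone 1 and at 9.45 and 16.7 in clone 2. The DDX6 KO libraries were all above the rest, and the DGCR8 KO libraries were scattered 13.3-fold on only 16 counts in all. The difference from WT was 1.85 (SE 0.39, adjusted p = 0.00144) in DDX6 KO and -1.53 (adjusted p = 0.0763) in DGCR8 KO. Without DGCR8 KO replicate 2, the library in which Sycp1 was highest, the DGCR8 KO value was -2.36 (adjusted p = 0.0264) and was called; over all alternatives its adjusted p ran from 0.0264 to 0.466.

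Sycp3 was at 20.1, 18.3 and 9.09 CPM in WT, at 10.7, 18.6 and 4.46 in DGCR8 KO, at 30.6 and 33.2 in clone 1 and at 27.3 and 34.2 in clone 2. WT and DGCR8 KO overlapped over most of their range, and all DDX6 KO libraries were higher. Sycp3 differed from WT by 1.19 (SE 0.29, adjusted p = 0.00398) in DDX6 KO, and by -0.44 (adjusted p = 0.396) in DGCR8 KO. Its call in DDX6 KO rested on WT replicate 3: without that library the difference was 0.71 (adjusted p = 0.0897), where all alternatives gave an adjusted p from 5.74e-04 to 0.0897. With the replicate number as a block the difference was 0.69, also short of a call.

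Mael, Asz1 and Tex19.1 belong to the defence of the germline against transposons, Mael and Asz1 (GASZ) in the piRNA pathway. Mael gave 4, 1 and 4 counts in WT, 1, 2 and 5 in DGCR8 KO, 9 and 11 in clone 1 and 6 and 20 in clone 2. In CPM its mean was 3.69 ± 1.44 (SD, n = 4) in DDX6 KO against 1.05 ± 0.798 in WT and 1.002 ± 0.906 in DGCR8 KO. It differed from WT by 1.94 (SE 0.62, adjusted p = 0.0212) in DDX6 KO. At so few counts the call was lost without WT replicate 2 (1.51, adjusted p = 0.0831) and without WT replicate 3 (1.96, adjusted p = 0.083), the range over all alternatives being 0.0106 to 0.0831.

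Asz1 was close to 0 everywhere, with 1, 1 and 0 counts in WT, 1, 0 and 0 in DGCR8 KO, 2 and 3 in clone 1 and 5 and 2 in clone 2. The 12 counts of DDX6 KO and 2 of WT, set against the totals of their libraries, gave a ratio of 5.17 with an exact 95% Poisson interval of 1.152 to 47.6. No library held more than 5 counts, and chromosome 6, on which Asz1 lies, had a median log2 difference of 0.60 in DDX6 KO.

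Tex19.1, which is expressed in pluripotent cells and the placenta as well as the germline, was at 378, 386 and 482 CPM in WT, 184, 165 and 167 in DGCR8 KO, 377 and 403 in clone 1 and 343 and 329 in clone 2. All DGCR8 KO libraries were below all others by a wide margin. Tex19.1 fell in DGCR8 KO by 1.27 on the log2 scale (SE 0.12, adjusted p = 2.39e-07), a 2.42-fold decrease called under every alternative. In DDX6 KO the difference was -0.20 (SE 0.10, adjusted p = 0.142), and clone 2 lay below every WT library while clone 1 overlapped them.

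Tex101, a surface protein of spermatogenic cells, gave 5, 5 and 5 counts in WT. It gave 2, 0 and 0 counts in DGCR8 KO, 1 and 0 in clone 1 and 0 and 3 in clone 2. Every library of a knockout was thus below every WT library. The ratio of DGCR8 KO to WT was 0.146 (exact 95% Poisson interval 0.0162 to 0.628, 2 counts against 15) and that of DDX6 KO to WT 0.230 (0.0556 to 0.722, 4 counts against 15). These intervals leave out the spread between libraries, and a knockout library at 0 allows a level up to the floor of its depth.

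Dppa3 (Stella, PGC7) protects 5-methylcytosine in the zygote and is a marker of naive cells and primordial germ cells. It was at 12.9, 16.3 and 13.3 CPM in WT, at 1.83, 6.41 and 1.62 in DGCR8 KO, at 5.10 and 5.19 in clone 1 and at 1.75 and 2.23 in clone 2. All 7 knockout libraries were below all WT libraries. Dppa3 fell by 2.29 on the log2 scale in DGCR8 KO (SE 0.45, adjusted p = 6.33e-04) and by 2.11 in DDX6 KO (SE 0.38, adjusted p = 3.59e-04), and both calls held under every alternative run. It moved against its chromosome: the median of chromosome 6 was 0.60 higher in DDX6 KO, between 0.53 and 0.68 in each library, and with chromosome medians taken off the DDX6 KO difference was -2.71 (adjusted p = 2.64e-05). Over all alternatives the DDX6 KO adjusted p ran from 2.64e-05 to 0.0224.

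Slc25a31, the ADP/ATP carrier of male germ cell mitochondria, rose most. It gave 0, 7 and 4 counts in WT, 4, 5 and 0 in DGCR8 KO, 15 and 26 in clone 1 and 29 and 37 in clone 2. The lowest DDX6 KO library, at 5.47 CPM, was above the highest WT library, at 2.37. The log2 difference from WT was 3.22 (SE 0.71, adjusted p = 0.00185) in DDX6 KO and -0.13 (SE 0.97, adjusted p = 0.933) in DGCR8 KO. By summed counts, 107 against 11, the ratio of DDX6 KO to WT was 8.39 with an exact 95% Poisson interval of 4.51 to 17.3.

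The clones were compared to ask whether these differences were those of 1 clone. In a fit with a group for each clone, Ddx4, Sycp1, Sycp3 and Slc25a31 were called higher, and Dppa3 lower, in clone 1 and in clone 2 against WT. Of all genes tested, 6.89% were called higher and 2.9% lower in clone 1, and 6.76% and 3.16% in clone 2. Mael was at 1.93 (adjusted p = 0.0589) in clone 1 and 1.95 (adjusted p = 0.0511) in clone 2, and Dazl at 0.91 (adjusted p = 0.014) and 0.74 (adjusted p = 0.0402). Between the clones 0 of the 8 genes were called, where 0.0428% of all genes tested were. An unadjusted p under 0.05 was given by limma to 284 of all 11683 genes tested, and to 1 of the 8. That gene was Dppa3, at 5.14 CPM in clone 1 and 1.99 in clone 2, a log2 difference of -1.31 (SE 0.61, adjusted p = 0.9998). Ddx6 itself was at 141 CPM in clone 1 and 32.2 in clone 2. Both clones also shared a shift of chromosome 6, whose median log2 difference from WT was 0.53 to 0.68 in each of their libraries. A difference found in both clones therefore cannot be told apart from one that goes with a change shared by both.

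Compared directly, DGCR8 KO and DDX6 KO differed in 5 of the 6 genes that passed the filter without the DDX6 KO libraries and in Mael and Slc25a31, all lower in DGCR8 KO, where 9.32% of all genes tested were called lower and 7.77% higher. The log2 differences were -3.38 for Sycp1, -3.35 for Slc25a31, -2.06 for Mael, -1.80 for Dazl, -1.63 for Sycp3, -1.59 for Ddx4 and -1.07 for Tex19.1. The ranges of the 2 groups did not overlap for any of these 7, of which Mael and Slc25a31 passed the filter only through DDX6 KO. The share of all genes tested without such an overlap was not counted. Mael lost its call without DGCR8 KO replicate 1 (-1.50, adjusted p = 0.0988, in a range of 0.00913 to 0.0988), and Tex19.1 reached -0.99 against clone 2 alone. Dppa3, low in both knockouts, differed by -0.18 (SE 0.52, adjusted p = 0.802), which leaves room for a difference in either direction.

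Among the genes of the group with at least 10 CPM on average, levels over the 10 libraries followed each other to different degrees. Dazl and Sycp3 had a Pearson correlation of 0.953 in log2 CPM, Ddx4 and Sycp3 one of 0.803, and Ddx4 and Tex19.1 one of 0.197. Over all tested genes, the 3 most like Dazl were Zfp322a (0.984), Rab1a (0.982) and Coa6 (0.981), and the 3 most like Ddx4 were Ogg1 (0.981), Msantd4 (0.980) and Intu (0.972). Those most like Sycp3 were Birc2 (0.974), Ccdc88a (0.968) and Eif4enif1 (0.966), and those most like Tex19.1 were Ykt6 (0.986), Steap1 (0.984) and 2810004N23Rik (0.982). The 10 points share 3 genotypes, so that these values mostly describe the order of the groups.

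Other germline genes were examined from a list of 56 genes, of which 35 were tested. In DDX6 KO 10 were called higher and 3 lower, or 28.6% and 8.57%, where 7.55% and 3.66% of all genes tested were. In DGCR8 KO 4 were called higher and 7 lower, or 11.4% and 20.0%, where 8.93% and 5.8% of all genes were. Piwil1, Tdrkh, Mov10l1 and Taf7l passed the filter only through DDX6 KO, and Nanos3 only through DGCR8 KO, so that their calls were bound to that group. Of the 30 left, 6 were called higher and 3 lower in DDX6 KO, and 3 higher and 7 lower in DGCR8 KO. With total counts in place of TMM, 12 of all 35 were called higher and 1 lower in DDX6 KO, against 10 and 3 with TMM. The median log2 difference of the 30 was 0.04 in DDX6 KO and 0.05 in DGCR8 KO. The plot of other germline genes gives the level of every gene of the list that was called.

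In the piRNA pathway and germ granules, 5 genes were tested independently of the DDX6 KO libraries. In DDX6 KO 1 of them was called higher and 2 lower, where 7.55% and 3.66% of all genes tested were. Piwil1, Tdrkh and Mov10l1, which passed the filter only through DDX6 KO, were called higher as well. Mov10l1, the helicase that feeds precursors into the piRNA pathway, rose from 2.58 to 18.5 CPM (log2 difference 2.77, SE 0.35, adjusted p = 1.196e-05), and Piwil2 (MILI), a PIWI protein, from 10.02 to 51.0 CPM (2.34, SE 0.22, adjusted p = 6.48e-07). Rnf17, a Tudor-domain protein of germ granules, fell from 102 to 32.9 CPM (-1.62), and Tdrd12 from 94.2 to 44.3 CPM (-1.10). In DGCR8 KO 1 of the 8 genes tested was called, where 8.93% of all genes were called higher and 5.8% lower. That gene was Ddx25, a helicase of spermatids, which fell from 6.97 to 1.54 CPM (-2.25).

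In meiosis genes, 3 of 11 tested were called higher in DDX6 KO and 1 lower, and in DGCR8 KO 1 higher and 4 lower, against the shares over all genes of 7.55% and 3.66% in DDX6 KO and 8.93% and 5.8% in DGCR8 KO. Tex11, an X-linked meiosis gene, was called higher in both: it was at 8.84 CPM in WT, 34.7 in DGCR8 KO (1.98) and 39.0 in DDX6 KO (2.15). Hormad2, a monitor of chromosome synapsis, was called lower in both, at 9.39 CPM in WT, 2, 2 and 0 counts in the DGCR8 KO libraries (adjusted p = 7.66e-05) and 4.39 CPM in DDX6 KO (-1.04, adjusted p = 0.0135). In DGCR8 KO Tex15 fell from 54.8 to 10.5 CPM (-2.42, adjusted p = 1.38e-07).

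Among germ cell regulators and other germ cell genes, 3 of 16 tested were called higher in DDX6 KO and 0 lower by limma. In DGCR8 KO 3 were called higher and 2 lower. The shares over all genes were 7.55% and 3.66% in DDX6 KO and 8.93% and 5.8% in DGCR8 KO. In DDX6 KO limma gave 10 of the 16 an unadjusted p under 0.05, and 5177 of all 11683 genes tested. Less Taf7l and Nanos3, which the filter bound, 2 of 14 were called higher in each knockout. Taf7l, a germ cell subunit of TFIID, gave 0, 0 and 2 counts in WT and rose to 4.85 CPM in DDX6 KO (adjusted p = 3.61e-04). Sohlh2, a transcription factor of early germ cells, was called higher in both, at 19.0 CPM in WT, 79.1 in DGCR8 KO (2.30) and 70.0 in DDX6 KO (2.11). In DGCR8 KO Nanos3 rose from 1.42 to 4.61 CPM (1.68), Prdm1 (BLIMP1), a specifier of primordial germ cells, from 59.4 to 152 CPM (1.34), and Stk31 fell from 18.8 to 5.06 CPM (-1.97). Stra8, the gatekeeper of meiosis, rose from 7.54 to 21.2 CPM in DDX6 KO (1.599). It lies on chromosome 6, and less that chromosome's median its difference was 0.998.

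**Figure D4:**
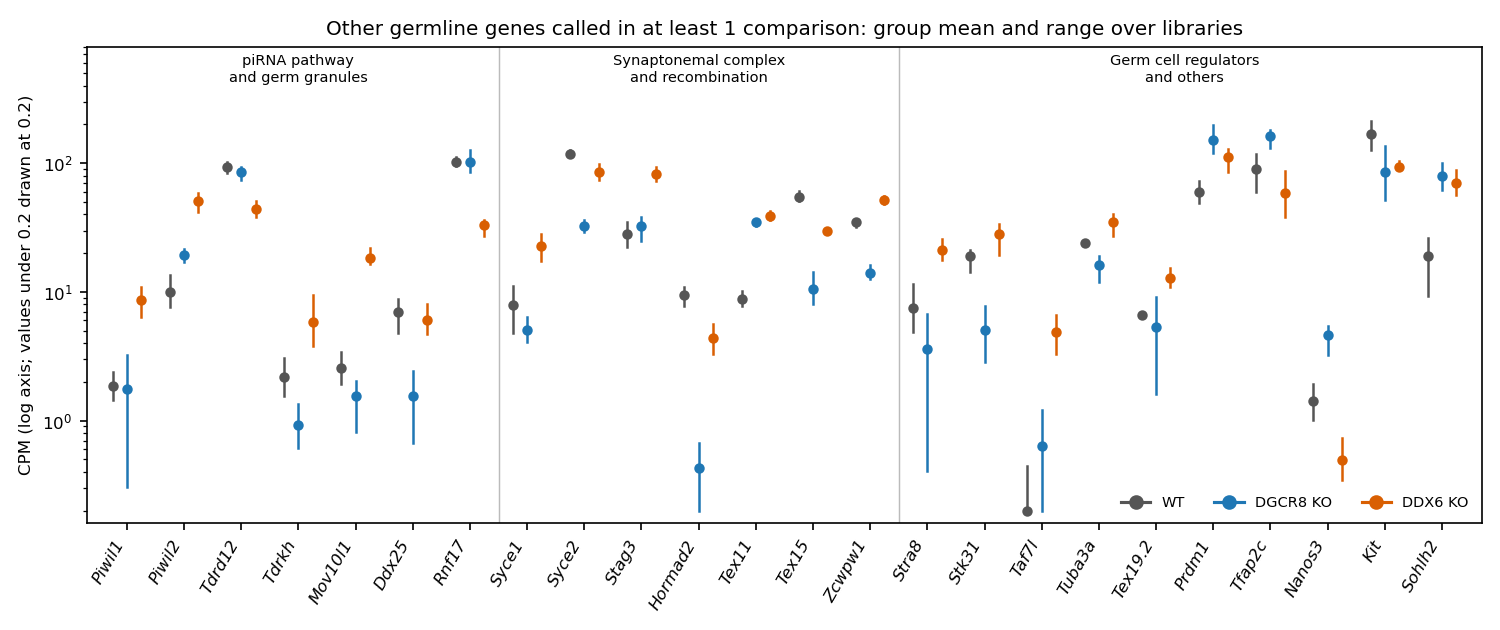
Mean CPM (points, log axis) and range over libraries (lines) in WT, DGCR8 KO and DDX6 KO for each gene of the list of other germline genes (x axis, in 3 groups) that was called in at least 1 comparison; values under 0.2 CPM are drawn at 0.2. DDX6 KO is the highest group for Piwil1, Piwil2, Mov10l1, Stag3 and Stra8, among others, and the lowest for Rnf17 and Tdrd12.

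Between the knockouts 16 of the 35 genes were called lower in DGCR8 KO and 3 higher, where 9.32% and 7.77% of all genes were. The lower ones included Mov10l1 (-3.47), Stra8 (-2.94), Taf7l and Hormad2, the last 2 with at most 3 counts in any DGCR8 KO library. The higher ones were Nanos3, at 4.61 against 0.495 CPM, Rnf17 (1.63) and Tfap2c (1.51). Among the 30 genes not bound by the filter, 12 were called lower in DGCR8 KO and 2 higher.

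The promoter motifs were set beside the calls as a description. Ddx4, Sycp1 and Sycp3, which hold both TCCCGC and CACGTG, were called higher in DDX6 KO, and so were Mael and Slc25a31, which the filter bound to that result. Dazl and Asz1 hold neither, and all their DDX6 KO libraries were also above all WT libraries, for Asz1 on only 12 and 2 reads. Outside the 2 lists of germline genes, 485 tested genes had both motifs, and 5.16% of them were called higher in DDX6 KO, against 7.45% of 8387 genes without the pair. Of the other germline genes, 1 of 4 with both and 7 of 21 without the pair were called higher.

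The factors that silence such promoters were measured in the same libraries, from a list of 27 genes that were all tested. An unadjusted p under 0.05 was given by limma to 14 of the 27 in DGCR8 KO, and to 5319 of all 11683 genes tested. In DGCR8 KO 0 of the 27 were called higher and 1 lower, where 8.93% and 5.8% of all genes were. That gene was Uhrf1, the partner of DNMT1 in keeping methylation, which fell from 276 to 137 CPM (-1.03, SE 0.14, adjusted p = 1.67e-05). Dnmt1 differed from WT by 0.24 and Dnmt3b by -0.80 in DGCR8 KO.

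In DDX6 KO 1 of the 27 was called higher and 1 lower, where 7.55% and 3.66% of all genes were. Dnmt3b, a de novo DNA methyltransferase, fell from 193 to 75.1 CPM (-1.35, SE 0.17, adjusted p = 1.33e-05), and Tet3, a dioxygenase that oxidises 5-methylcytosine, rose from 19.4 to 58.6 CPM (1.64, SE 0.18, adjusted p = 3.16e-06). Tet3 lies on chromosome 6, and less that chromosome's median its difference was 1.04. Between the knockouts Max was higher in DGCR8 KO (231 against 113 CPM) and Tet3 lower (23.4 against 58.6 CPM). None of the 14 genes of PRC1.6 and none of the 5 of H3K9 methylation was called in either knockout against WT by limma. An unadjusted p under 0.05 was reached by 5 and 4 of them in DGCR8 KO, and by 8 and 2 in DDX6 KO. It was reached by 5319 of all 11683 genes tested in DGCR8 KO and by 5177 in DDX6 KO. At an adjusted p under 0.05 from limma, 3 of the 14 PRC1.6 genes were higher in DGCR8 KO and 1 was lower. The higher ones were Mga (0.63), Max (0.71) and E2f6 (0.60), and the lower one was Cbx3 (-0.51). In DDX6 KO 4 were higher and 3 lower. Over all genes tested the numbers were 2322 and 1924 in DGCR8 KO, and 2089 and 1944 in DDX6 KO. DNA methylation itself was not measured, and the part of these genes in the levels above was not tested.

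**Figure D5:**
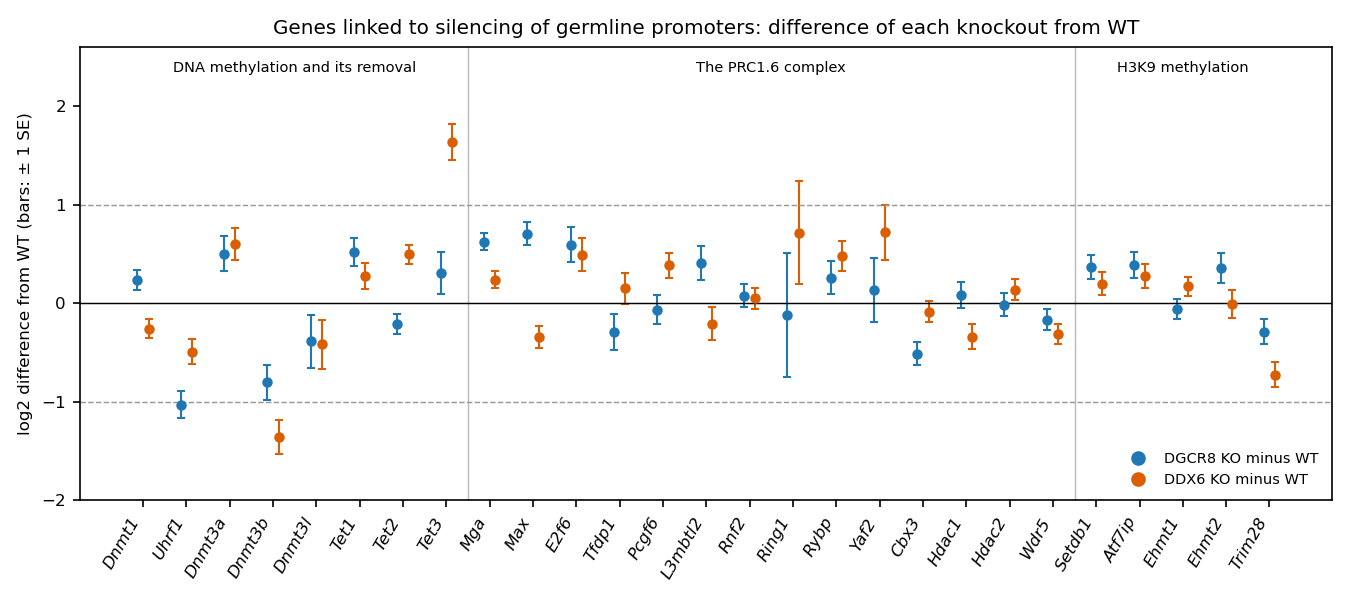
Log2 difference from WT (y axis, bars ± 1 SE) in DGCR8 KO and DDX6 KO for 27 genes of DNA methylation and its removal, of the PRC1.6 complex and of H3K9 methylation (x axis); dashed lines mark a difference of 1 in either direction. Uhrf1 in DGCR8 KO, and Dnmt3b and Tet3 in DDX6 KO, pass those lines.

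Some markers of other cells differed from WT in the knockouts as well. Of 6 markers of 2-cell-like cells, a rare state of ESC cultures, 2 were tested, and both rose: Zscan4c from 1.46 to 7.61 CPM (2.22, adjusted p = 0.00802) and Tcstv1, with 0, 3 and 2 counts in WT, to 2.63 CPM (adjusted p = 0.0309). In the fit by clone, both were called in clone 2 (adjusted p = 0.00466 and 0.0183) and neither in clone 1 (0.0546 and 0.161). Zscan4c passed the filter only through DDX6 KO. Tcstv1 reached 3 CPM in 2 DDX6 KO libraries, 1 DGCR8 KO library and 0 WT libraries, so it was tested only through the knockouts. That both rose is thus bound to the filter. Of all genes tested, 7.55% were called higher in DDX6 KO. In DGCR8 KO limma called neither. Tcstv1 was there at 2.28 CPM (2.02, adjusted p = 0.0609), with no overlap with WT, and Zscan4c at 2.56 CPM (0.49, adjusted p = 0.627). The summed level of the 6 was 0.478 to 4.07 CPM in WT, 2.03 to 10.96 in DGCR8 KO and 8.30 to 20.0 in DDX6 KO. Of the 4 markers of primed epiblast, Otx2 fell in DDX6 KO from 35.6 to 7.72 CPM (-2.22) along with Dnmt3b, Pou3f1 fell in DGCR8 KO from 10.3 to 4.86 CPM (-1.15), and Fgf5 had 0 counts in every library. The summed level of 6 fibroblast genes was 3.39 to 4.30 CPM in WT, 2.03 to 3.38 in DGCR8 KO and 5.25 to 9.47 in DDX6 KO, and that of 4 trophoblast genes, with Elf5 at 0, was 10.8 to 19.6, 6.75 to 17.4 and 8.07 to 18.6 CPM. The summed level of 5 primitive endoderm genes was 2.03 to 5.25 CPM in WT, 1.83 to 3.04 in DGCR8 KO and 1.73 to 4.73 in DDX6 KO. The part of such cells in the levels of the germline genes was not tested.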

How the data were processed

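The authors trimmed reads with cutadapt 1.14, aligned them to mm10 with STAR 2.5.3a and counted unique reads by strand over exons with featureCounts 1.5.3. The values deposited are raw counts per gene and library, with no use of molecular identifiers stated. The 92 spike-in sequences were set apart, and 51274 of 51467 genes were paired with a symbol. Libraries were grouped by title. Counts were scaled with edgeR 4.0.16 and fitted with voom in limma 3.58.1 (R 4.3.3), with all 10 libraries and no covariate beside the group, as the study names limma and this filter (at least 3 CPM in at least 3 libraries, 11683 genes). Adjusted p-values are two-sided, by the Benjamini-Hochberg method over all genes tested. The script was tested on simulated data. Exact permutation tests cannot reach 0.05 with 3 against 3 libraries (0.10 at best), so the genes under the filter are given with counting intervals (scipy 1.17.1) and, as an alternative, by the same fit without the filter.

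Same-numbered WT and DGCR8 KO libraries deviated from their group means together (Pearson r 0.118 to 0.244 over 3 pairs, across genes), and differently numbered ones did not (-0.224 to -0.0159 over 6), so blocked values are given where they change a call. The pairing comes from the numbers in the titles and the data, not from a stated batch. All 10 genes are named in every comparison. From the other lists, genes called were named, at most 4 in each direction. For genes of at least 10 CPM the 3 most correlated genes were named. The genes and lists were chosen with earlier results of these data known. Promoters and miRNAs are those of RefSeq and 3′ UTRs those of GENCODE vM21, for the longest coding sequence of each gene. Alternatives changed the scaling, filter, test, libraries, block and call rule.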

Additional observations from a re-analysis of the deposited data

Results flagged for a closer look

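Ddx4 in DDX6 KO had a library that stood apart from its group: clone 1 replicate 1 was at 37.2 CPM and the other 3 libraries at 49.1 to 51.4, a gap of 0.838 of the group's whole range. This was 1 of 10 groups of 4 libraries examined, and chance gives about 1 in 20. The library was still above every WT and DGCR8 KO library, and Ddx4 was called in DDX6 KO in each fit that left out a library, with log2 differences from 1.70 to 2.30.

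When DGCR8 KO was set directly against DDX6 KO, 5 of 6 genes were called lower in DGCR8 KO, where 9.32% of all genes tested were. The 6 are those that passed the filter without the DDX6 KO libraries. Of them 0 were called higher, against 7.77% of all genes. Mael and Slc25a31 were called lower as well, but could be tested only because they are high in DDX6 KO. The log2 differences were -1.80 for Dazl (adjusted p = 2.12e-05), -1.59 for Ddx4 (2.02e-05), -3.38 for Sycp1 (1.39e-04), -1.63 for Sycp3 (7.93e-04), -2.06 for Mael (0.0156), -1.07 for Tex19.1 (6.97e-07) and -3.35 for Slc25a31 (0.00128). All 3 DGCR8 KO libraries were below all 4 DDX6 KO libraries for each of these genes, which was not counted over all genes tested. Dazl alone moved away from WT on opposite sides in the 2 knockouts with no overlap of libraries in either. Tex19.1 was called against WT in DGCR8 KO and not in DDX6 KO, and Ddx4, Sycp1, Sycp3, Mael and Slc25a31 in DDX6 KO and not in DGCR8 KO.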

How the results depend on the processing

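Between 13 and 19 alternatives were run for each gene and comparison: other scalings, filters, tests, groups in the fit, libraries left out, a replicate block, chromosome medians taken off, single clones and a call rule without a minimum size. Over all values of single genes, 383 kept their direction and side of the threshold, 9 gained a call, 6 lost one and 12 changed sign. With the replicate block, Dazl in DGCR8 KO was called at -1.04, Sycp3 in DDX6 KO fell short at 0.69 (adjusted p = 0.0148, in a range of 5.74e-04 to 0.0897), Mael in DGCR8 KO was 0.23 and Dppa3 between the knockouts 0.077; the block changed no other call of the 8 genes. Same-numbered WT and DDX6 KO libraries had r from 0.00806 to 0.151. With 2 libraries per clone the deviations within a clone mirror each other. These values therefore cannot decide whether the numbers pair DDX6 KO with WT.

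Without the filter 4 of 10 genes were called in DGCR8 KO, among them Tex101 (-2.62, adjusted p = 0.00767), which was also called in DDX6 KO (-2.31, adjusted p = 0.0172), while Asz1 was at -0.73 (adjusted p = 0.579) and 1.46 (adjusted p = 0.172). The count in DGCR8 KO was 2 to 4 over the fits that left out a library, 4 without DGCR8 KO replicate 2. Against clone 2 alone 4 of 6 genes tested were called between the knockouts, since Mael and Slc25a31 then failed the filter and Tex19.1 was at -0.99. With adjusted p alone 21 of the other germline genes were called in DDX6 KO, against 13. Over all 11683 genes tested, that rule called 2089 higher and 1944 lower, against 882 and 428. Piwil1, Tdrkh, Mov10l1 and Taf7l, which passed the filter only through DDX6 KO, are among the germline genes called. The changes of sign were those of values near 0: leaving out a library gave -0.65 to 0.44 for Mael, -0.81 to 0.82 for Slc25a31 and -0.92 to 0.026 for Sycp3 in DGCR8 KO, and -0.79 to 0.13 for Dppa3 between the knockouts, which was 0.34 with chromosome medians taken off and 0.40 against clone 2 alone. Single sign changes were 0.27 and 0.44 for Mael without WT replicate 1 and DGCR8 KO replicate 1, 0.73 and 0.82 for Slc25a31 without WT replicate 2 and DGCR8 KO replicate 3, and 0.13, 0.09 and 0.03 for Dppa3 without DGCR8 KO replicates 1 and 3 and DDX6 KO replicate 2. Total counts in place of TMM moved the median of DDX6 KO against WT by 0.12. Mael could be tested in 4 of the 7 fits that left out a library in DDX6 KO. The causes were not tested. Depth limits Asz1, Tex101, Mael and Slc25a31, of which WT libraries gave 7 counts or fewer.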
